A study of Mus musculus with 6 samples.

Results

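The genes described here are 10 receptors and adhesion molecules that germ cells use to find and hold their way to the gonad. They were chosen by symbol from a fixed list, and each of the 10 was matched by its Entrez gene ID to 1 of the 23837 named genes in the deposited table. They comprise the guidance receptors *Kit*, *Cxcr4*, *Ackr3* and *Ror2*, the integrin subunits *Itga6* and *Itgb1*, the cadherins *Cdh1* and *Cdh2*, and the junction and contact proteins *Epcam* and *Gja1*. The cells were primordial germ cells (PGCs) of male mouse embryos at E13.5, sorted by green fluorescence. The OG2 transgene gives it by placing EGFP under the *Oct3/4* distal enhancer. Both groups carried this transgene on the same background. There were 3 WT samples, with the genotype og2.fvb.fancg +/+, and 3 samples labelled *Fancg*-/-, with the genotype og2.fvb.fancg -/-. Every sample held 10000 PGCs from a pool of at least 5 embryos, and its RNA was hybridized to an Affymetrix mouse gene array. A sorted pool is a bulk sample, in which fewer cells of a type and less RNA per cell cannot be told apart.

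PGCs arise far from the gonad and travel through the hindgut and its mesentery to the genital ridges. KIT, a receptor tyrosine kinase, binds KIT ligand from the surrounding tissue and keeps the cells alive and motile. CXCR4 follows gradients of the chemokine CXCL12, ACKR3 binds the same chemokine and removes it, and ROR2 is a receptor of WNT5A. Integrins attach cells to laminin and fibronectin, cadherins and EPCAM attach them to each other, and connexin channels built from GJA1 couple neighbouring cells. By E13.5 the migration is over and the germ cells lie in the testis cords among Sertoli cells, so the values describe these transcripts after arrival. The study asked how loss of *Fancg*, a gene of the Fanconi anemia core complex, affects PGCs, with migration as its main concern.

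The deposited values are log2 signals per gene, and differences are given as *Fancg*-/- minus WT on that scale, with limma's standard error (SE). Calls required an adjusted p below 0.05 (Benjamini-Hochberg, over all 23837 genes). Array medians lay between 4.68 and 4.75 and correlations between arrays between 0.989 and 0.994, so that none was a copy of another. *Fancg* itself had values of 6.07, 5.95 and 6.37 in WT samples and 6.38, 6.65 and 6.87 in the samples labelled *Fancg*-/-. The signal of the targeted gene was thus higher in each of the latter, by 0.51 (SE 0.16, a fold of 1.42, adjusted p = 0.27 from limma), opposite to the direction that a loss of its transcript would give. The sources used here do not give the position of its probes relative to the disrupted part. The array values therefore leave the labels unchecked, and *Fancg*-/- means labelled so in every direction given here. The paper states that embryos were genotyped for *Fancg* with primers. Germ cell markers had signal in every sample, with group means of 10.27 and 10.26 for *Ddx4*, 11.78 and 11.68 for *Dazl* and 12.13 and 12.03 for *Dppa3* in WT and *Fancg*-/- samples. Transcripts of Sertoli cells were also present. Their 14 markers averaged, relative to each gene's mean over the 6 samples, -0.10, 0.14 and 0.56 in WT replicates 1, 2 and 3 and -0.11, -0.50 and 0.01 in *Fancg*-/- replicates 1, 2 and 3, and all 14 had a median difference of -0.50. *Sox9* and *Amh*, which define Sertoli cells, had means of 6.98 and 8.49 in WT samples and 6.38 and 7.95 in *Fancg*-/- samples. The 12 measured fetal Leydig cell markers had a median difference of -0.53, with averages of 0.23 to 0.50 in WT samples and -0.53 to -0.33 in *Fancg*-/- samples. For the 14 interstitial and stromal markers the median was -0.22, with averages of -0.17 to 0.33 and -0.24 to -0.01. For the 15 endothelial markers it was 0.31, with averages of -0.31 to 0.06 in WT samples and 0.03 to 0.33 in *Fancg*-/- samples. Differences of these markers ran from -0.45 to 1.105, with 14 positive and 1 negative. *Eng*, an endothelial receptor, had the largest of them, with means of 5.81 and 6.91. The 11 macrophage markers had a median of 0.09 and the 9 erythroid markers 0.02, the latter with averages from -0.91 to 0.75 within the *Fancg*-/- group. The 15 germ cell markers had a median of -0.0041. Their averages, -0.083 to -0.026 in WT samples and -0.024 to 0.083 in *Fancg*-/- samples, had a mean difference of 0.093, opposite in sign. These averages did not overlap, but replicate 1 of WT (-0.026) and of *Fancg*-/- (-0.024) all but touched. An exact two-sided permutation test gave p = 0.1, the lowest it can give with 3 against 3. At an unadjusted p under 0.05, 4 of the 15 were higher and 1 lower, among them *Tfap2c* with 0.56 and *Stk31* with -0.53, and none was called.

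None of the 10 genes was called by limma, and 0% of all genes were (0 of 23837). At an unadjusted p under 0.05 from limma, 1 of the 10 was higher, *Cxcr4*, where 6.23% of all genes were, and 2 were lower, *Itga6* and *Gja1*, where 6.17% were. The groups did not overlap, with the *Fancg*-/- samples higher, in *Cxcr4* and *Cdh1* (9.45% of all genes). They did not overlap, with the *Fancg*-/- samples lower, in *Itga6* (8.45% of all genes). The other 7 genes overlapped. The median difference of the 10 was -0.06, beside 0.01 over all genes, and the differences ran from -0.64 to 0.40. With so few genes these shares say little about the group as a whole, and the genes are described one by one.

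**Figure D1:**
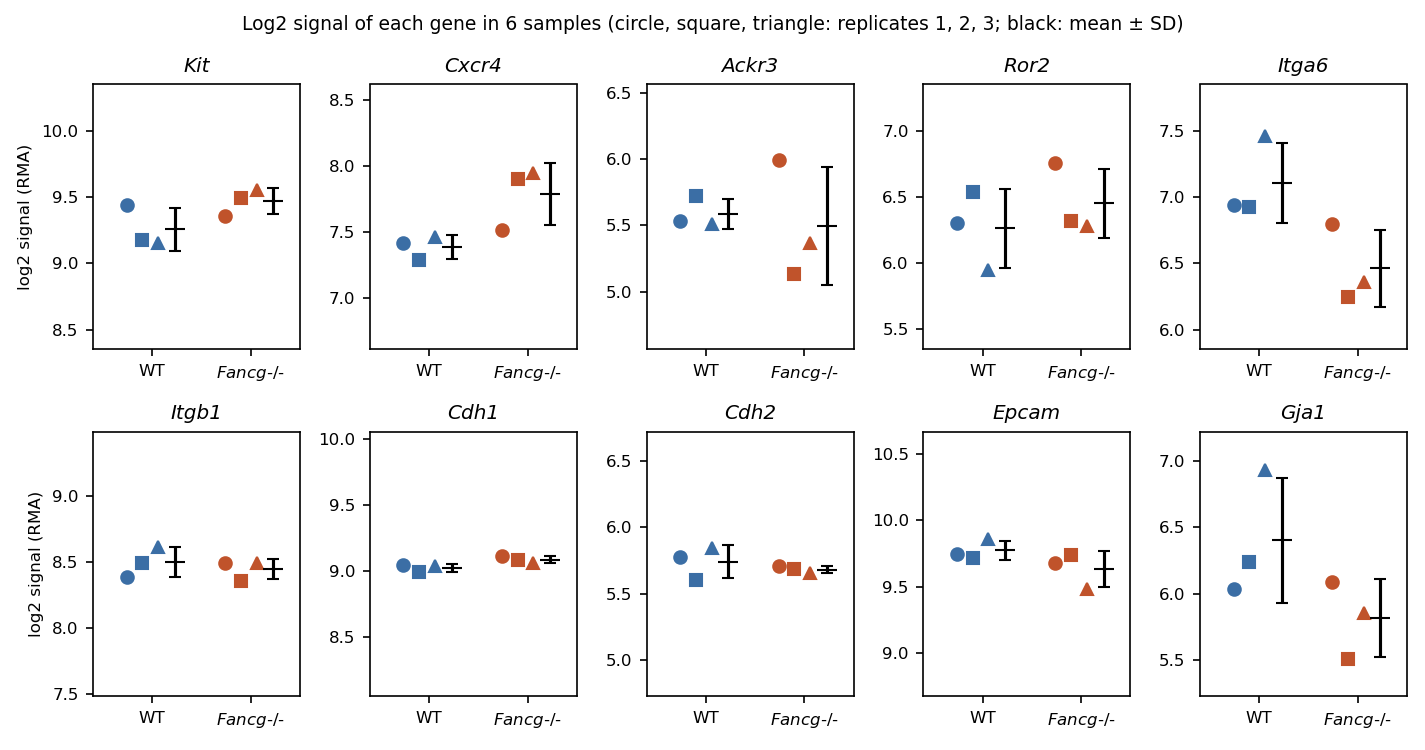
Log2 signal (RMA) of each of the 10 genes in the 3 WT samples (blue) and the 3 *Fancg*-/- samples (orange), with symbols for replicates 1, 2 and 3 and the mean ± SD in black. Every panel spans the same range of 2 log2 units. *Cdh1* stayed within 8.99 to 9.11, whereas *Gja1* spread from 5.51 to 6.94.

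The upstream sequences of 3 of these genes are printed first, because they stand for the receptor that differed most and its partner, and for the connexin. They are the 250 bases before the annotated start, from RefSeq (GRCm38.p6), 5′ to 3′ on the strand of the gene. Capitals mark a TATA box (TATAAA) or a GC box (GGGCGG), searched on both strands and allowed to overlap.
*Cxcr4*, chr1:128592300-128592549, minus strand: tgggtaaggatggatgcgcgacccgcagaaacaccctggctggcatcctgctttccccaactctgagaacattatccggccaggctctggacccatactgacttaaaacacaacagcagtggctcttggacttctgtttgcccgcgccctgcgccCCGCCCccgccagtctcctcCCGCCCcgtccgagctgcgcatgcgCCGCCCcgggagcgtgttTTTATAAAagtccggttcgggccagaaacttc
*Ackr3*, chr1:90203730-90203979, plus strand: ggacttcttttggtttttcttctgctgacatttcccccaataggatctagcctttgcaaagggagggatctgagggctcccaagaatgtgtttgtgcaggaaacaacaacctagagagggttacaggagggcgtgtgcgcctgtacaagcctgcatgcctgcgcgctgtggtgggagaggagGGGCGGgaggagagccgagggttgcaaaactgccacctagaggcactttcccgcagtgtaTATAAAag
*Gja1*, chr10:56377050-56377299, plus strand: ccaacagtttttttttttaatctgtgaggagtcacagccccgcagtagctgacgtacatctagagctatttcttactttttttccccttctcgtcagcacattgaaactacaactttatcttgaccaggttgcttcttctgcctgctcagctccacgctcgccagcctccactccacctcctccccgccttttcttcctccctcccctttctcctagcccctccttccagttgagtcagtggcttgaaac
Upstream sequences were at hand for 7 of the 10 genes, and those of *Itga6*, *Cdh1* and *Cdh2* were not used here. The TATA box occurred in *Cxcr4* and *Ackr3*, both receptors of CXCL12, and in 13.0% of 27025 promoters of the same length. Its position differed, as the matches began 32 and 30 bases before the annotated start in *Cxcr4* and 8 bases before it in *Ackr3*. The GC box occurred in 6 of the 7, *Gja1* being the exception, and in 32.9% of all. An E-box of the letters CACCTG, a sequence bound by repressors of the SNAI and ZEB families, was searched in the same way. It occurred in *Epcam*, at 2 places, and in none of the other 6, beside 17.1% of all promoters. These matches describe the letters and do not show that a factor binds there.

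Of the guidance receptors, *Kit* (Entrez gene 16590) had log2 values of 9.44, 9.18 and 9.15 in WT samples and 9.36, 9.497 and 9.55 in the *Fancg*-/- samples. WT replicate 1 lay above *Fancg*-/- replicate 1, so the groups overlapped. The means were 9.26 ± 0.16 (SD, n = 3) and 9.47 ± 0.10 (SD, n = 3), a difference of 0.21 (SE 0.11, adjusted p = 0.50 from limma). The 95% interval, -0.04 to 0.47, reached from a fold of 0.969 to one of 1.38 and held 0. Endothelial markers moved with *Kit* across the samples. WT replicate 1, the highest WT sample for *Kit*, was also the highest WT sample for them. The highest of all samples differed, being *Fancg*-/- replicate 3 for *Kit* (9.55) and *Fancg*-/- replicate 2 for the markers (0.33). With the mean of the endothelial markers as a covariate, an alternative chosen after the data were seen, the difference was 0.0082 (SE 0.14). With the mean of the 40 Sertoli, Leydig and interstitial markers it was -0.084 (SE 0.17). The part of other cells in the result was not tested further.

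*Cxcr4* (Entrez gene 12767) had the largest positive difference of the 10. Its values were 7.42, 7.29 and 7.46 in WT samples and 7.52, 7.90 and 7.95 in the *Fancg*-/- samples. Each *Fancg*-/- sample lay above each WT sample, *Fancg*-/- replicate 1 only narrowly (p = 0.1 by an exact permutation test, two-sided, which cannot go lower with 3 against 3). The difference was 0.40 (SE 0.13, 95% interval 0.10 to 0.70), a fold of 1.32, with an adjusted p of 0.29 from limma. It was 0.35, 0.34 and 0.32 without WT replicate 2, *Fancg*-/- replicate 2 and *Fancg*-/- replicate 3, each no longer at an unadjusted p under 0.05. The SD was 0.09 among the WT samples and 0.23 among the *Fancg*-/- samples. *Cxcr4* is also a gene of endothelial cells, whose markers averaged 0.03, 0.33 and 0.12 in *Fancg*-/- replicates 1, 2 and 3. With that average as a covariate the difference was 0.26 (SE 0.19). With the Sertoli markers it was 0.40 (SE 0.18), and with the 40 somatic markers together it was 0.27 (SE 0.25).

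*Ackr3* (Entrez gene 12778), the scavenging receptor of the same chemokine, differed by -0.09 (SE 0.21, 95% interval -0.57 to 0.39, adjusted p = 0.90 from limma). Its 3 WT values were close together, at 5.53, 5.72 and 5.51. The *Fancg*-/- samples lay on both sides of them, at 5.996, 5.13 and 5.37, with an SD of 0.45. The difference was 0.094 without *Fancg*-/- replicate 2, so it has no settled direction. The balance between the receptors, *Cxcr4* minus *Ackr3* within each array, was 1.89, 1.57 and 1.96 in WT samples and 1.52, 2.77 and 2.58 in *Fancg*-/- samples. It was wider in *Fancg*-/- replicates 2 and 3 than in any WT sample and narrower in replicate 1, a mean shift of 0.49 (exact two-sided permutation test, p = 0.4).

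*Ror2* (Entrez gene 26564) had values of 6.30, 6.54 and 5.94 in WT samples and 6.75, 6.32 and 6.28 in *Fancg*-/- samples. The lowest and the highest value belonged to WT replicate 3 and *Fancg*-/- replicate 1, and the others were mixed. The difference of 0.19 (SE 0.18, 95% interval -0.23 to 0.61, adjusted p = 0.73 from limma) was smaller than the SD in the WT samples, 0.30. Single samples decided its size, which was 0.031 without WT replicate 3, 0.038 without *Fancg*-/- replicate 1 and 0.33 without WT replicate 2.

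The largest difference of the 10 genes belonged to *Itga6* (Entrez gene 16403), the alpha subunit of laminin-binding integrins. It had values of 6.94, 6.92 and 7.46 in WT samples and 6.80, 6.24 and 6.36 in *Fancg*-/- samples. WT replicate 3 stood highest and every *Fancg*-/- sample lay below every WT sample (p = 0.1 by the same exact permutation test). The means of 7.11 ± 0.31 (SD, n = 3) and 6.47 ± 0.29 (SD, n = 3) differed by -0.64 (SE 0.19, 95% interval -1.09 to -0.20), a signal 1.56-fold lower in *Fancg*-/- samples, with an adjusted p of 0.26 from limma. Without WT replicate 3 the difference was -0.47, still with an unadjusted p under 0.05 from limma. By absolute size it ranked 338 among the 23837 genes.

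Sertoli cell markers moved with *Itga6* only in part. WT replicate 3 was the highest and *Fancg*-/- replicate 2 the lowest sample for both. However, the marker average was higher in *Fancg*-/- replicate 3 (0.01) than in WT replicate 1 (-0.10), whereas *Itga6* was lower there (6.36 against 6.94). With the mean of these markers as a covariate the difference in *Itga6* was -0.36 (SE 0.20), with the endothelial markers it was -0.24, and with the 40 somatic markers together it was -0.13. The direction was kept under all of these, but the groups differed in the covariates themselves, and the part of other cells in the result was not tested beyond this. The genes whose 6 values lay closest to those of *Itga6* were *Fem1al*, *Lrrc8b* and *Jag1*, at root mean square distances of 0.059, 0.085 and 0.10 log2 units after centring each gene on its own mean. *Itga6* itself varied by 0.40 in the same measure.

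*Itgb1* (Entrez gene 16412), the beta subunit that pairs with most of the alpha subunits for laminin and fibronectin, differed little. Its values were 8.39, 8.49 and 8.61 in WT samples and 8.49, 8.36 and 8.49 in *Fancg*-/- samples. The groups overlapped, and the difference was -0.05 (SE 0.10, adjusted p = 0.88 from limma). Its 95% interval, -0.28 to 0.17, corresponds to folds of 0.826 to 1.13.

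Among the cadherins, *Cdh1* (Entrez gene 12550), which encodes E-cadherin, was the steadiest of the 10 genes. It had values of 9.05, 8.99 and 9.04 in WT samples and 9.11, 9.08 and 9.06 in *Fancg*-/- samples. The groups did not overlap, but they were only 0.06 apart (SE 0.08, adjusted p = 0.82 from limma), a fold of 1.04. The 95% interval of the fold, before any adjustment, was 0.917 to 1.19. *Cdh2* (Entrez gene 12558), N-cadherin, had 5.78, 5.60 and 5.85 in WT samples and 5.71, 5.68 and 5.65 in *Fancg*-/- samples, which overlapped. It differed by -0.06 (SE 0.09, 95% interval -0.28 to 0.16, adjusted p = 0.85 from limma), and by -0.0094 without WT replicate 3 or -0.13 without WT replicate 2.

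The balance of the cadherins was then compared within each array. *Cdh1* minus *Cdh2* was 3.27, 3.39 and 3.19 in WT samples and 3.41, 3.40 and 3.41 in *Fancg*-/- samples. The groups did not overlap, with a mean shift of 0.12 (p = 0.1 by the same exact permutation test). WT replicate 2 differed from the nearest *Fancg*-/- sample by less than the SD among WT samples, 0.10, and the shift was 0.08 without WT replicate 3 or after a further quantile normalization.

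*Epcam* (Entrez gene 17075), an adhesion molecule of epithelia and germ cells, had values of 9.75, 9.72 and 9.86 in WT samples and 9.68, 9.74 and 9.48 in *Fancg*-/- samples. *Fancg*-/- replicate 3 was the lowest, and *Fancg*-/- replicate 2 lay above WT replicate 2. The difference was -0.14 (SE 0.10, 95% interval -0.37 to 0.09, adjusted p = 0.62 from limma), and -0.066 without *Fancg*-/- replicate 3.

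*Gja1* (Entrez gene 14609), which encodes connexin 43, varied most within the WT group. Its values were 6.04, 6.24 and 6.94 in WT samples and 6.09, 5.51 and 5.85 in *Fancg*-/- samples. WT replicate 3 stood well above the other WT samples, and *Fancg*-/- replicate 1 lay above WT replicate 1, so the groups overlapped. The difference was -0.59 (SE 0.24, 95% interval -1.15 to -0.03), a signal 1.502-fold lower in *Fancg*-/- samples, with an adjusted p of 0.38 from limma. Without WT replicate 3 it was -0.32, no longer at an unadjusted p under 0.05, and the same held without *Fancg*-/- replicate 2 (-0.43) or *Fancg*-/- replicate 3 (-0.60). Sertoli cells express *Gja1* strongly, and their markers were also highest in WT replicate 3 and lowest in *Fancg*-/- replicate 2. With the mean of these markers as a covariate the difference was -0.11 (SE 0.17), with the endothelial markers it was 0.029, and with the 40 somatic markers it was 0.26, opposite in direction. The part of other cells in the result was not tested beyond this.

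**Figure D2:**
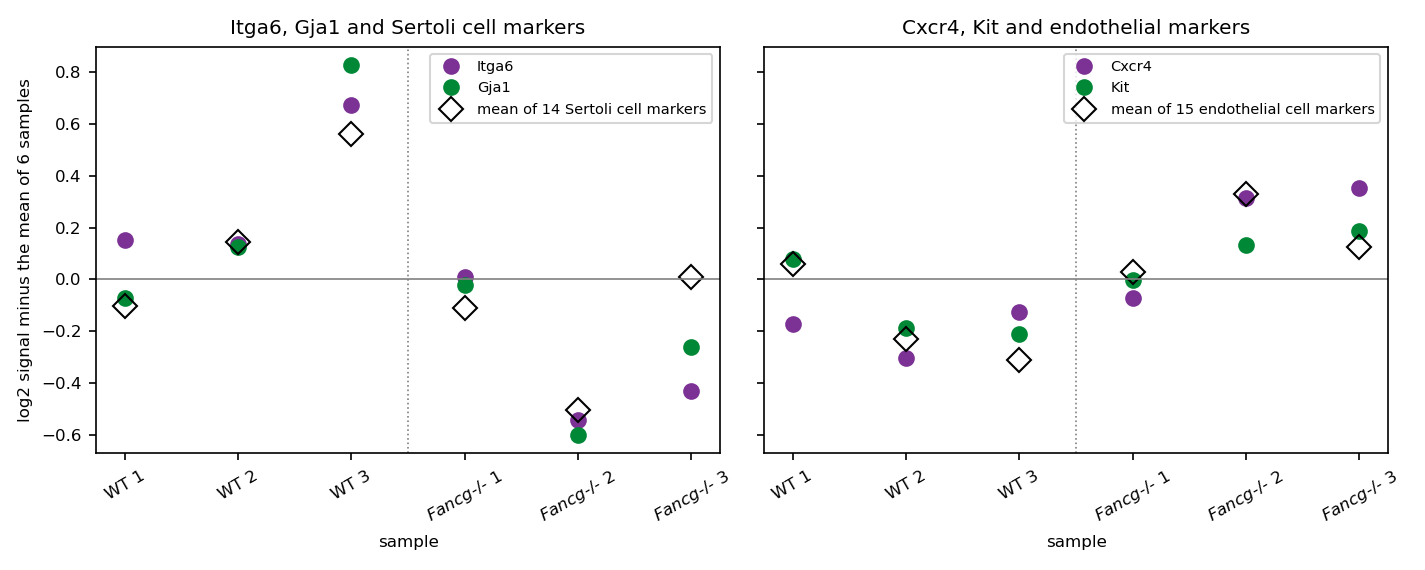
Log2 signal minus the mean of the 6 samples, for *Itga6* and *Gja1* beside the mean of 14 Sertoli cell markers (left) and for *Cxcr4* and *Kit* beside the mean of 15 endothelial markers (right), 1 column per sample. WT replicate 3 is highest and *Fancg*-/- replicate 2 lowest for all 3 series on the left. On the right the WT replicates 2 and 3 lie below 0 and *Fancg*-/- replicates 2 and 3 above it. In replicate 1 of both groups *Cxcr4* lies below 0 and the endothelial mean above it.

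**Figure D3:**
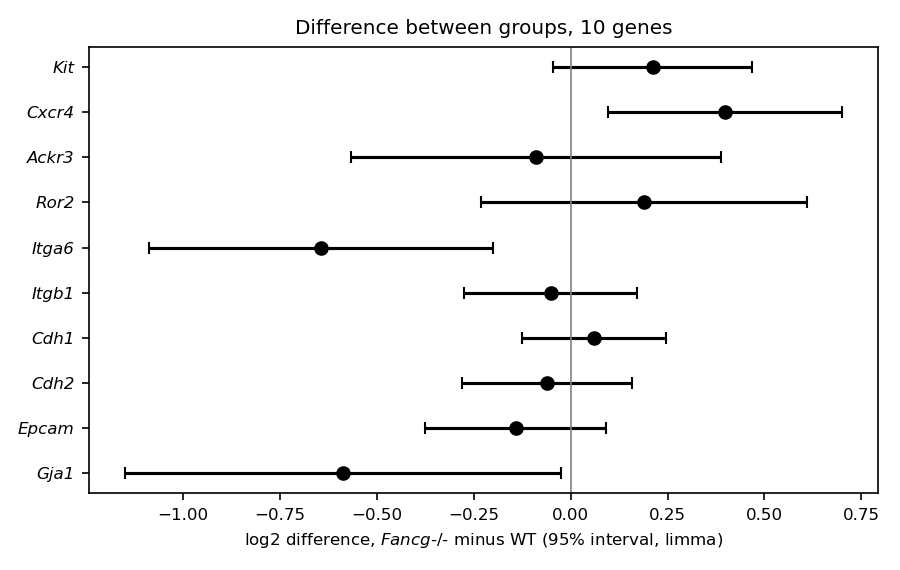
Log2 difference, *Fancg*-/- minus WT, of the 10 genes with its 95% interval from limma, before any adjustment. The intervals of *Cxcr4*, *Itga6* and *Gja1* leave out 0 and the other 7 include it.

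The ligands, partners and relatives of these genes were taken from 9 lists with 131 genes, all of them measured. None was called by limma. Without adjustment, 20 were higher and 10 lower at p under 0.05, beside the same 6.23% and 6.17% of all genes. The ligands of the guidance receptors were measured in the sorted cells although they are made mainly by the surrounding tissue. *Cxcl12* had 6.37, 6.33 and 6.44 in WT samples and 6.15, 6.27 and 5.89 in *Fancg*-/- samples, which did not overlap (difference -0.27, SE 0.11, adjusted p = 0.39 from limma). Its direction was thus opposite to that of *Cxcr4* in the same samples. *Kitl* differed by -0.04 (SE 0.17) and *Wnt5a* by -0.31 (SE 0.15), and in both genes the groups overlapped.

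Of 18 genes of KIT signalling, a list that includes *Kitl* and its sheddase *Adam17*, 6 were higher and 2 lower by this unadjusted threshold of limma, with a median of 0.10. *Sh2b3*, an adaptor that restrains cytokine receptor signalling, had a difference of 0.49 (SE 0.12, adjusted p = 0.19 from limma). The docking protein gene *Gab2* had 0.46 (SE 0.11), and *Pik3r1*, the regulatory subunit of PI 3-kinase, had -0.42 (SE 0.12). These 3 genes were named for the smallest p of their list. Groups without overlap, seen in each of them, are therefore no separate result. Over all genes, 9.45% did not overlap with the *Fancg*-/- samples higher and 8.45% with them lower.

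Of 13 genes of the CXCL12 axis, 2 were higher and 1 lower by the same threshold, with a median of 0.02. The higher ones encode inhibitory G protein subunits through which CXCR4 signals, *Gnai1* with 0.46 (SE 0.12) and *Gnai2* with 0.25 (SE 0.09), and the lower one was *Cxcl12*. Of 15 genes of the WNT5A and planar polarity list, *Vangl1*, a core polarity gene, had 0.54 (SE 0.16), none was lower by this threshold, and the median was 0.0011.

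Of 17 other integrin subunits, 3 were higher and 1 lower by this threshold, with a median of 0.04. *Itga1*, a collagen-binding subunit, had 5.13, 4.60 and 4.75 in WT samples and 5.33, 6.01 and 5.75 in *Fancg*-/- samples, a difference of 0.87 (SE 0.20, adjusted p = 0.18 from limma). The endothelial marker average was likewise highest in *Fancg*-/- replicate 2, and among WT samples in replicate 1, and its part in the result was not tested. *Itgb7* had 0.58 (SE 0.14) and *Itgb5* had -0.36 (SE 0.11). None of the 13 integrin adaptors passed this threshold, and their median was -0.02.

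Among the 12 laminin and fibronectin genes, the ligands of these integrins, 4 were lower and 1 higher by the same threshold, with a median of -0.19. *Lama1* had -0.55 (SE 0.14), *Lamb2* had -0.41 (SE 0.12) and *Fn1*, fibronectin, had -0.27 (SE 0.08). They too were named for the smallest p of their list. In each the groups did not overlap, as in 8.45% of all genes with the *Fancg*-/- samples lower. Matrix genes of this kind are also expressed by Sertoli and stromal cells, whose markers were lower on average in the same samples, though the groups overlapped. Sertoli markers averaged -0.10 in WT replicate 1 and 0.01 in *Fancg*-/- replicate 3. Stromal markers averaged -0.17 in WT replicate 1 and -0.01 in *Fancg*-/- replicate 1. With the 40 somatic markers as a covariate the median of the list was -0.096. The part of other cells in the result was not tested beyond this.

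Of 17 cadherin partners, other classical cadherins and their repressors, 2 were higher and 1 lower, with a median of -0.09 that has no settled direction. It was 0.0090 without WT replicate 2, 0.042 without WT replicate 3, and 0.080, 0.063 and 0.0052 with the somatic, Sertoli and endothelial markers as covariates. *Snai2*, a repressor of E-cadherin, had -0.40 (SE 0.11), and *Ctnnb1*, beta-catenin, which binds the tail of E-cadherin, had 0.24 (SE 0.08) with values of 9.67, 9.65 and 9.71 in WT samples and 9.93, 9.94 and 9.88 in *Fancg*-/- samples. *Cdh8*, the other of the 2, had 0.31 (SE 0.13), but its mean signal lay among the lowest 25% of genes and its groups overlapped. Of the 11 EPCAM partners and tetraspanins, 4 were higher and 0 lower by the same unadjusted threshold. In all, 8 of the 11 had a positive and 3 a negative difference. Their median was 0.24, and 0.078 without WT replicate 2. *Cldn7*, a claudin that binds EPCAM, had 0.54 (SE 0.19), *Cldn3* had 0.44 (SE 0.13), and the tetraspanin gene *Cd9* had 0.38 (SE 0.12), while *Epcam* itself lay in the other direction. Of 15 other connexins and gap junction partners, *Gjb5* was higher by 0.84 (SE 0.31) in groups that overlapped, *Gjd2* had -0.27 (SE 0.11), and the median was 0.01.

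**Figure D4:**
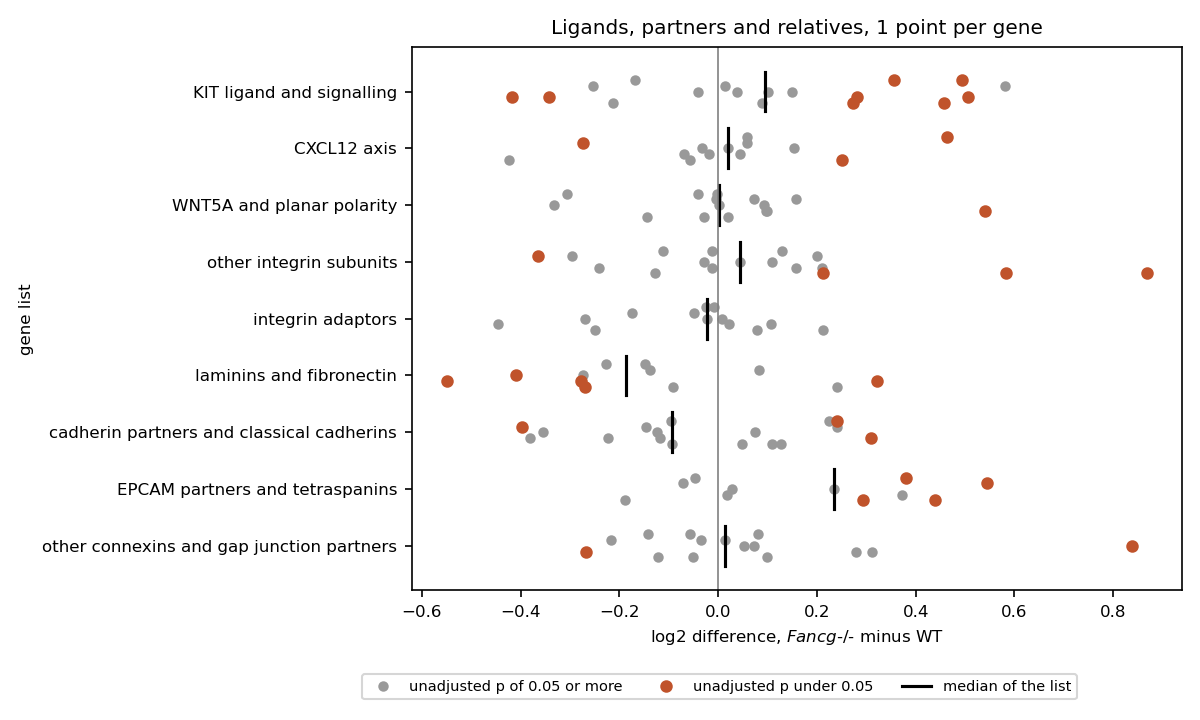
Log2 difference, *Fancg*-/- minus WT, of 131 ligands, partners and relatives in 9 lists, 1 point per gene, with orange for an unadjusted p under 0.05 from limma and a black line at the median of each list. Medians run from -0.19 for laminins and fibronectin to 0.24 for EPCAM partners and tetraspanins.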

How the data were processed

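The authors deposited log2 values made by RMA, which corrects background, normalizes quantiles and summarizes probes, with 1 row per Entrez gene. The submitters' processing notes name RMA and Partek. For neither is a version given in the sources used here, nor is a build. Of 24479 rows, 23712 were named through RefSeq (GRCm38.p6) and 23837 in all, and the 642 others were not tested. All 6 samples entered 1 fit without a block (lmFit and eBayes of limma 3.58.1 in R 4.3.3). Single comparisons within arrays were tested with an exact permutation test. The procedure was tested on simulated data. Arrays have no read depth, and their number limits precision. The replicates are separate pools of embryos.

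The members and lists were chosen with earlier results of these data known, so that no count is independent evidence. Genes named are the 10 members, *Fancg*, the 3 ligands, up to 3 genes of each of 9 partner lists with the smallest p, markers, and the 3 genes nearest in pattern to the member with the largest difference. *Ddx4*, *Dazl*, *Dppa3*, *Sox9*, *Amh* and *Eng* were named after their values were seen.

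The alternatives comprised array weights, a robust prior with an intensity trend, the methods' test (a t test per gene), 2 normalizations, filters on dim genes (lowest 25% and 50%), all rows, the replicate block, somatic markers as a covariate and leaving out each sample. The Sertoli and endothelial markers alone as covariates were added after the data were seen.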

Additional observations from a re-analysis of the deposited data

How the results depend on the processing

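No member was called under any of the 18 alternatives, and *Cxcr4*, *Itga6*, *Cdh1*, *Cdh2*, *Epcam* and *Ror2* kept their direction in all of them. Over these alternatives the adjusted p from limma or the methods' test ranged from 0.16 to 0.93 for *Cxcr4*, from 0.16 to 0.98 for *Itga6* and from 0.25 to 0.99 for *Gja1*. With the mean of the 40 somatic markers as a covariate, *Kit* (-0.084), *Ackr3* (0.26), *Itgb1* (0.18) and *Gja1* (0.26) reversed, and the median difference of the 10 genes was 0.11. *Ackr3* (0.029) and *Itgb1* (0.074) also reversed with the Sertoli markers, and *Ackr3* (0.25), *Itgb1* (0.11) and *Gja1* (0.029) with the endothelial markers. So did *Ackr3* without *Fancg*-/- replicate 2 (0.094, with a range of -0.34 to 0.094 over the samples left out) and *Itgb1* without WT replicate 3 (0.0053). Members higher at an unadjusted p under 0.05 numbered 2 with an intensity trend or array weights, and 0 by the methods' test and with the somatic, Sertoli or endothelial covariate. Members lower numbered 0 by the methods' test and with each of these covariates. Leaving out 1 sample gave 0 to 2 higher and 1 to 3 lower members, the median difference ranging from -0.07 to 0.03. *Cdh1* minus *Cdh2* ranged from 0.08 to 0.17, and *Cxcr4* minus *Ackr3* from 0.25 to 0.87. Over all genes limma called 3 without WT replicate 1 and none otherwise.

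Samples of the same replicate number did not deviate together (correlations over genes of -0.14, -0.11 and 0.03), so the numbers are not treated as pairs. With the replicate number as a block the counts of members at an unadjusted p under 0.05 were again 1 higher and 2 lower, with 0 called and an adjusted p of 0.42 for *Cxcr4* and 0.38 for *Itga6*. Covariate fits leave 3 residual degrees of freedom, and the covariates differ between the groups, so they take part of any group difference with them. The causes were not tested.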
